A study of Gossypium hirsutum with 8 samples.

Results

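Whole roots were set against first leaves of upland cotton (Gossypium hirsutum) of the cultivar Sicot 71 that had not been flooded. The arrays were chosen by their titles as unflooded controls: 2 of root and 2 of leaf, which makes 4 of the 8 arrays of the series. All plants stood in soil in a glasshouse and had reached the 2-leaf stage. Control plants kept their normal watering, whereas the other 4 arrays came from plants whose roots were under water, for 4 h before root sampling and 24 h before leaf sampling. The sampling time of the controls is given only as control, and the labels do not say how many plants went into an array. Total RNA was labelled with biotin and read on the Affymetrix cotton array, on which a group of short oligonucleotides, called a probe set, gives a signal for a transcript. The series asks how waterlogging changes both tissues, and the control arrays allow a second question, namely how the unstressed tissues differ.

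A young leaf fixes carbon in chloroplasts. Its cells hold much RNA for the proteins that harvest light and run the Calvin cycle, and its epidermis makes a cuticle of waxes and long-chain lipids. A root imports sugar, which sucrose synthase or invertase has to cleave, takes up water and ions, and lignifies its water-conducting cells with the help of class III peroxidases. Cotton roots also make gossypol and related terpenoid aldehydes as defence compounds, and cotton fibres, which are seed hairs, share many wall proteins with other elongating cells.

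Signals are given on the log2 scale after quantile normalization over the 4 unflooded arrays, and each difference is root minus leaf, so that a positive value means higher in root. The deposited tissues lay on different scales, with medians of 6.16 and 6.17 in root, against 5.42 and 5.38 in leaf. The replicate arrays correlated at r = 0.952 in root and 0.983 in leaf across probe sets, and a root and a leaf array at 0.719 to 0.758. Root replicate 2 stood apart: the 95th percentile of its 52 reporter probe sets, used only as a guide to background, was 7.08, against 5.57 on root replicate 1 and 5.97 on both leaf arrays. Of all probe sets tested, 35.5% on root replicate 2 lay above their own array's guide, compared with 52.9% on root replicate 1 and 47.8% and 47.9% on the leaf arrays. With 2 arrays against 2, an exact two-sided permutation test cannot go below p = 0.333, so calls below rest on limma, which borrows spread from other probe sets. Its p-values reflect only how far 2 arrays of a tissue lie apart. With 1 array left out, they reflect only the pair of the tissue that still has 2.

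The tissue labels were checked first against marker genes. RCA1 (LOC107942112) is rubisco activase, which keeps the carbon-fixing enzyme of the leaf active. Its signal was 4.80 and 5.34 in root, against 14.32 and 14.34 in leaf (difference -9.26, SE 0.27, 614-fold, limma adjusted p = 0.000178). Both root arrays lay under the reporter guide for RCA1, and both leaf arrays were near the top of the signal range. The symbol GOX, used for glycolate oxidase, read 10.22 and 10.21 in root, against 9.53 and 9.95 in leaf, a difference of 0.47 that did not pass (limma adjusted p = 0.234). Both root arrays of GOX lay above both leaf arrays, and its difference turned to -0.37 when the reporter probe sets were made equal. None of the root markers on the list, such as ammonium and phosphate transporters or Casparian strip proteins, carried a gene name here. The only relative, GhCASPL2A1, belongs to the wider family of Casparian strip-like proteins and was lower in root. The root label therefore has the near-background level of RCA1 and no positive marker of its own behind it.

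Other cell types were looked at in the same way. cdn1 (LOC107903500) is delta-cadinene synthase, the first committed enzyme of gossypol synthesis and a marker of gossypol glands, and it read 11.23 and 11.51 in root, against 4.62 and 4.59 in leaf. Of the trichome and fibre markers, E6 (LOC107913945), a protein abundant in cotton fibres, read 11.09 and 10.81 in root, against 7.12 and 7.79 in leaf (3.50, SE 0.31, 11.3-fold, limma adjusted p = 0.00205). LTP3 (LOC107896815), a lipid transfer protein, was lower in root by both of its probe sets, with differences of -2.79 and -5.99. The fibre expansin EXPA1 read 4.99 and 6.57 in root, against 4.22 and 4.39 in leaf, and the homeobox factor HOX3 4.81 and 4.49 in root, against 5.24 and 5.42 in leaf, with all arrays of both genes under their guides. The trichome and fibre list thus had 1 gene higher, 1 lower and 2 that did not pass. In whole organs, fewer cells of a type and less RNA per cell cannot be told apart.

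Of 23977 probe sets tested, 6204 (25.9%) differed between unflooded root and unflooded leaf at a limma adjusted p under 0.05. In root 3276 (13.7%) were higher and 2928 (12.2%) lower. At least 2-fold higher in root were 3024 probe sets (12.6% of those tested), and at least 2-fold lower 2742 (11.4% of those tested). Differences of at least 8-fold were counted for 668 higher and 1018 lower probe sets. The arrays of the tissues did not overlap for 66.1% of probe sets, with root higher in 36% and lower in 30.2%. The split between directions depends on the scale: it was 52.8% higher after quantile normalization, 87% on the deposited values, which set the median probe set at 1.08 rather than 0.08, and 23.8% when the reporter probe sets were made equal on all arrays, with a median of -0.30. A single leaf array moved the count to 2543 (without leaf replicate 1) or 2224 (without leaf replicate 2), while it was 9606 without root replicate 1 and 7592 without root replicate 2. All 6204 kept their direction in each of these fits. The calls came from these same arrays, so this was nearly fixed in advance and is no independent check.

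Gene symbols could be attached to 324 probe sets (246 genes), which is 1.35% of those tested, and the rest had a bare locus number, several genes or none. Of these, 97 (29.9%) were higher in root and 47 (14.5%) lower, and 180 did not pass. The probe sets with the largest differences of all carry no gene in the tables used here. Their differences were 10.34 and 9.82 on the side higher in root, and -10.02 and -9.65 on the side lower in root.

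The 15 named genes with the largest excess in root, each gene taken at its probe set with the smallest p, began with lipid and terpenoid enzymes. CPA-FAS-2 (LOC107936133), a cyclopropane fatty acid synthase that adds a methylene bridge to oleic acid chains, read 12.90 and 12.15 in root, against 5.38 and 5.43 in leaf (7.12, SE 0.32, 139-fold, limma adjusted p = 0.000346). CPA-FAS-1 (LOC107933118), of the same family, read 11.02 and 10.51 in root, against 3.80 and 4.38 in leaf (102-fold). Both root arrays were high and both leaf arrays under the guide in each gene, as they were for cdn1, which was 109-fold higher in root (6.76, SE 0.22, limma adjusted p = 0.000213). With the leaf arrays under the guide, these 3 folds depend on where background lies. A glutathione S-transferase gene, GST (LOC107889738), of a family that couples glutathione to reactive compounds, read 13.93 and 14.06 in root, against 8.31 and 8.21 in leaf (5.73, SE 0.21, 53.2-fold, limma adjusted p = 0.000234). This probe set was well above the guide in both tissues. The 3 probe sets of the gene were all called higher in root, with differences of 2.06 to 5.73.

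Sugar cleavage, peroxidases and defence came next. Sus1 (LOC107958826), a sucrose synthase, read 14.08 and 14.13 in root, against 8.67 and 9.25 in leaf (5.14, SE 0.28, 35.4-fold, limma adjusted p = 0.000555), and susC (LOC107901030) of the same family 9.32 and 9.53 in root, against 5.61 and 5.34 in leaf (15.5-fold). The class III peroxidases pod6 (LOC107908968) and POX10 (LOC107937645) were 35.6-fold and 22.5-fold higher in root. pod6 stood at 9.57 and 9.37 in root, against 4.18 and 4.45 in leaf, and POX10 at 13.01 and 12.59 in root, against 8.49 and 8.12 in leaf. In these 4 genes the root arrays lay close together and far from the leaf arrays, and susC and pod6 were under the guide in leaf, which makes their folds depend on background too. GLU (LOC107932771), placed with the defence genes by its symbol, read 12.01 and 12.17 in root, against 6.89 and 7.03 in leaf (34.9-fold).

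The remaining leading genes were of the wall and of hormone pathways. FLA6 (LOC107898811) and FLA7 (LOC107942443), fasciclin-like arabinogalactan proteins of the cell surface, read 11.08 and 11.22 in root, against 6.65 and 6.51 in leaf for FLA6 and 9.53 and 10.78 in root, against 6.15 and 6.82 in leaf for FLA7. The differences were 4.57 (limma adjusted p = 0.000376) and 3.67 (0.00730), and FLA7, whose arrays scattered more in both tissues, lost its call without leaf replicate 1. Lox1 (LOC107919998), a lipoxygenase, an enzyme class that starts the synthesis of jasmonate and other oxylipins, read 11.04 and 12.24 in root, against 7.84 and 7.11 in leaf (17.96-fold). ACO1 (LOC107905899), placed with the ethylene genes, read 12.17 and 12.13 in root, against 7.95 and 8.98 in leaf (12.9-fold). GID1-4 (LOC107899135), a receptor for gibberellin, read 8.34 and 8.37 in root, against 5.04 and 4.84 in leaf (10.7-fold) and was under the guide in leaf, with the same limit on its fold.

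**Figure D1:**
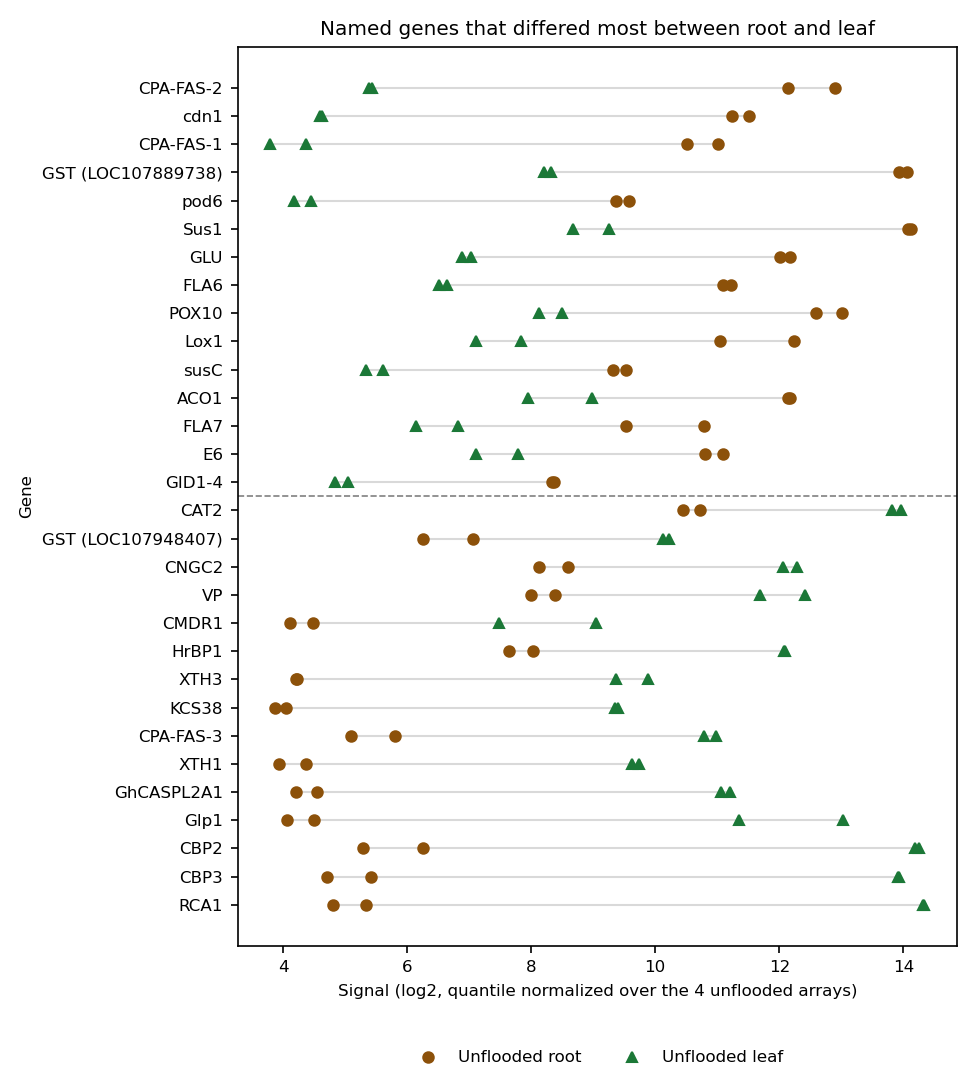
Signal on the log2 scale, after quantile normalization over the 4 unflooded arrays, of the 15 named genes with the largest difference in each direction, each gene taken at its probe set with the smallest p. Brown circles are the 2 root arrays and green triangles the 2 leaf arrays, with genes higher in root above the dashed line. Each pair of root arrays is clear of its pair of leaf arrays, which the choice of genes required, and RCA1 has the widest gap (-9.26).

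Among named genes the widest gaps belonged to genes lower in root. After RCA1, CBP3 (LOC107958067) read 5.42 and 4.71 in root, against 13.92 and 13.94 in leaf (466-fold) and CBP2 (LOC107913771) 5.28 and 6.26 in root, against 14.26 and 14.19 in leaf (350.4-fold), and both were under the guide on both root arrays. Glp1 (LOC107907099), a germin-like protein of the cell wall, read 4.50 and 4.07 in root, against 13.02 and 11.36 in leaf (-7.90, SE 0.59, 239-fold, limma adjusted p = 0.00127), with its leaf arrays further apart than in most of these genes. GhCASPL2A1 (LOC107932682) read 4.21 and 4.55 in root, against 11.21 and 11.06 in leaf (108-fold). Its other probe set, also called lower, stood at only -1.65. All 5 genes, RCA1 included, lay under the guide on both root arrays, so their folds depend on where background lies.

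Wall and lipid genes were also found on this side. XTH1 (LOC107911611) and XTH3 (LOC107913353) are xyloglucan endotransglucosylase/hydrolases, which cut and rejoin xyloglucan in the wall. XTH1 read 4.37 and 3.94 in root, against 9.62 and 9.75 in leaf (-5.53, SE 0.25, 46.2-fold, limma adjusted p = 0.000353). Its other probe set, also called lower, stood at -3.47. XTH3 read 4.23 and 4.22 in root, against 9.37 and 9.89 in leaf (42.4-fold). KCS38 (LOC107925445), a ketoacyl-CoA synthase of the kind that lengthens fatty acids for waxes, read 3.87 and 4.05 in root, against 9.39 and 9.35 in leaf (42.6-fold). These 3 were under the guide on both root arrays, so their folds likewise depend on where background lies. CPA-FAS-3 (LOC107932144), the third cyclopropane fatty acid synthase, read 5.81 and 5.10 in root, against 10.78 and 10.99 in leaf (-5.43, SE 0.31, 43.1-fold, limma adjusted p = 0.000649), opposite in direction to the other members.

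The last 6 leading genes lower in root had differences of -4.24 to -3.31. HrBP1 read 8.04 and 7.65 in root, against 12.08 and 12.07 in leaf. CMDR1 read 4.48 and 4.12 in root, against 9.05 and 7.48 in leaf, with a wide spread between its leaf arrays. CMDR1 was under the guide on both root arrays, so its difference depends on background. VP read 8.39 and 7.997 in root, against 11.69 and 12.41 in leaf. CNGC2, a cyclic nucleotide-gated ion channel, read 8.60 and 8.12 in root, against 12.28 and 12.06 in leaf (14.03-fold). A second GST gene (LOC107948407) read 6.26 and 7.07 in root, against 10.23 and 10.12 in leaf (11.4-fold), the reverse of the first. CAT2 (LOC107943729), a catalase that breaks down hydrogen peroxide, stood at 10.72 and 10.45 in root, against 13.82 and 13.97 in leaf (-3.31, SE 0.23, 9.95-fold, limma adjusted p = 0.00102), high in both tissues.

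By function 238 of the named probe sets were placed in 22 lists. The median over all probe sets tested was 0.08, and 13.7% were higher and 12.2% lower in root. Of the named probe sets, from which the lists were drawn, 29.9% were higher and 14.5% lower. A list's rule named its 4 genes of smallest p, and members named beyond these were picked after their values were seen. Of 51 called probe sets that the naming rule picked beside the 30 leading genes, 33 lost the call without a leaf array, 1 without a root array and 20 when reporters were made equal, DHAR1 among these 20.

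Of 39 cell wall probe sets (25 genes), 11 were higher in root and 4 lower, with a median of 0.48 and a range of -5.53 to 4.57. The higher ones included all 6 called probe sets of the fasciclin-like family: FLA6 by both of its probe sets, FLA7, FLA13 (2.69, limma adjusted p = 0.00350), FLA15 (2.42) and FLA2 (1.31). The other 13 of the 19 probe sets of that family did not pass, and 29.9% of all named probe sets were higher in root. H6L, a proline-rich wall protein, read 10.16 and 10.59 in root, against 7.34 and 7.06 in leaf (9.02-fold), and E6 was 11.3-fold higher. One probe set of CelA1, a cellulose synthase subunit, read 9.96 and 10.75 in root, against 8.02 and 7.01 in leaf (7.15-fold). The other CelA1 probe set stood at -0.044 and did not pass. The expansin EXPA11A, one of the proteins that loosen walls, was at 2.15 (limma adjusted p = 0.0270). The lower ones were 3 probe sets of XTH1 and XTH3 and 1 of Pel. EXPA3D, another expansin, had differences of -1.94 and -1.19 by its probe sets and did not pass. Without leaf replicate 1 or 2 the list had 8 higher and 3 lower in each case, and without a root array 14 higher and 5 or 6 lower.

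In the list of fatty acid, wax and lipid transfer, 7 of 19 probe sets were lower in root and 5 higher, with a median of -0.31. The range was the widest of the lists of at least 3 members, from -5.99 for LTP3 to 7.12 for CPA-FAS-2. The lower side held 3 of 7 ketoacyl-CoA synthase probe sets, which belong to KCS38 and KCS45 (-3.25), both LTP3 probe sets, CPA-FAS-3 and KASII (-1.99), a condensing enzyme of plastid fatty acid synthesis. The higher side held CPA-FAS-1, CPA-FAS-2, sad1 (2.73), which as a stearoyl desaturase makes oleic acid, the desaturase FAD78-1A (1.91) and FatB1 (1.88), a thioesterase that frees fatty acids in the plastid. The other probe sets of KASII (-0.21) and FatB1 (0.49) did not pass, nor did 2 of the 4 of KCS38. On the deposited scale the list's median turned to 0.29. Without leaf replicate 1 or 2, 3 stayed higher and 6 or 5 lower.

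**Figure D2:**
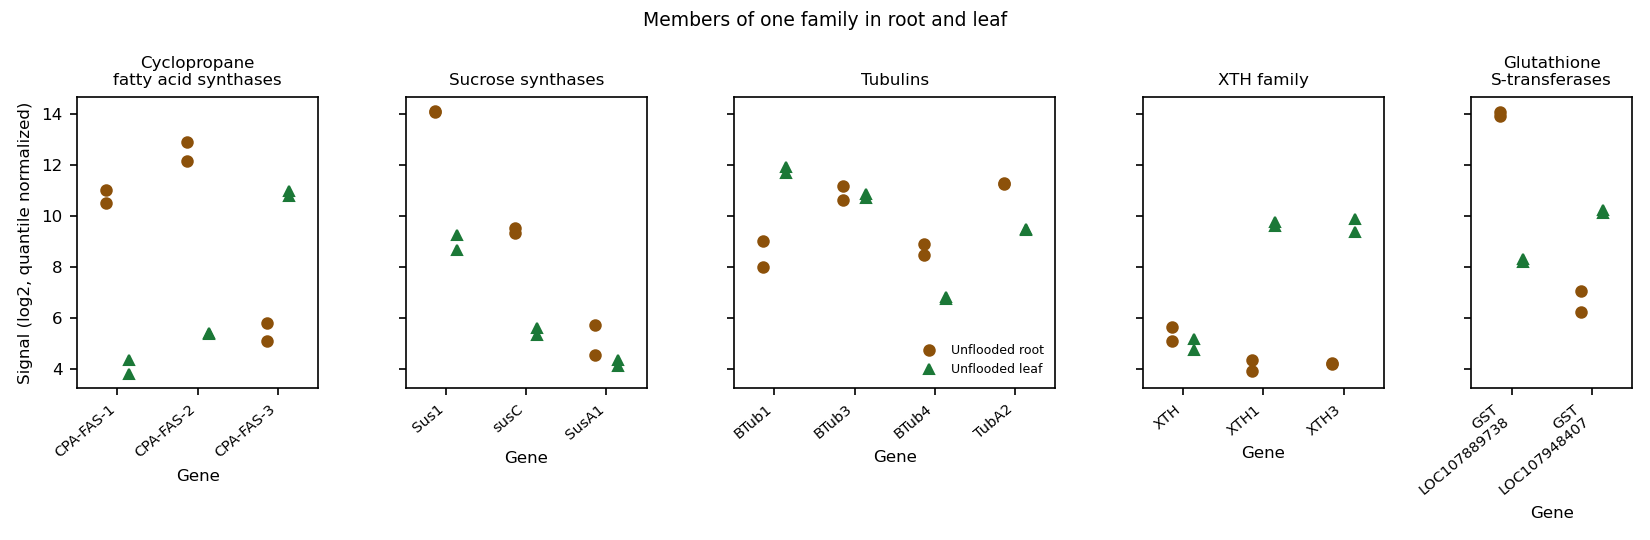
Signal on the log2 scale of members of 5 gene families, with brown circles for the 2 root arrays and green triangles for the 2 leaf arrays, 1 probe set per gene. Within the cyclopropane fatty acid synthases, tubulins and glutathione S-transferases some members are higher in root and others lower, while levels of different genes cannot be compared because their probes differ.

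Both members of the sucrose list that passed were those named above, Sus1 and susC, whereas the SusA1 probe sets stood at 0.90 (limma adjusted p = 0.211) and 0.38 and lay under the guide on the unflooded arrays. The list of 4 probe sets had a median of 2.43, 2 were higher in root and 0 lower, and 0 were lower at an unadjusted p under 0.05 as well.

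Class III peroxidases use hydrogen peroxide to couple phenolic units, as in lignin. Of their 12 probe sets 5 were higher in root and 0 lower by limma (6 and 0 at an unadjusted p under 0.05), with a median of 0.75. Besides pod6 and POX10, these were POX5 at 7.82 and 7.19 in root, against 5.15 and 4.95 in leaf (2.45), pod10 at 12.55 and 11.69 in root, against 10.33 and 8.41 in leaf (2.75, limma adjusted p = 0.0478) and pod7 at 7.06 and 7.59 in root, against 5.55 and 5.63 in leaf (1.74). The root arrays were above the leaf arrays in each of them, and POX5 and pod7 were under the guide in leaf. A further POX5 probe set stood at 0.53 and did not pass. The calls of POX5 and pod7 were lost when either leaf array was left out and when reporters were made equal, and the list then held 3, 2 and 2 higher.

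Other enzymes of redox control were divided. Of 12 probe sets 5 were higher in root and 4 lower, with a median of 0.35 that turned to -0.36 when reporters were made equal. The lower ones were the second GST gene, CSD2a, gAPX and FeSOD. CSD2a, a copper/zinc superoxide dismutase, read 10.58 and 10.50 in root, against 13.23 and 12.98 in leaf (5.93-fold, limma adjusted p = 0.00188), and gAPX, an ascorbate peroxidase, 10.08 and 9.68 in root, against 11.995 and 12.11 in leaf (4.52-fold). FeSOD, the iron form of superoxide dismutase, which plants keep in plastids, read 5.57 and 5.47 in root, against 7.19 and 7.72 in leaf and was under the guide in root. The manganese form of mitochondria, Mn-SOD, had differences of 0.47 and 0.24 by its probe sets and did not pass. On the higher side stood 3 probe sets of the first GST gene, DHAR1, a dehydroascorbate reductase, at 12.88 and 12.61 in root, against 10.48 and 10.49 in leaf (4.79-fold), and AOX1, the alternative oxidase of mitochondria, at 6.55 and 6.91 in root, against 4.67 and 5.03 in leaf (1.88). AOX1 was under the guide in leaf and on root replicate 2, and its call was lost when either leaf array was left out. Without leaf replicate 2 the list had 2 higher and 2 lower.

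Among 9 flavonoid and lignin probe sets 3 were higher in root and 1 lower (median 0.27, or -0.15 without root replicate 2). CCoAMOT2, a caffeoyl-CoA O-methyltransferase of lignin synthesis, read 11.41 and 12.11 in root, against 8.78 and 8.39 in leaf (3.17, SE 0.33, 9.01-fold, limma adjusted p = 0.00317). DFR, the dihydroflavonol reductase on the way to anthocyanins and condensed tannins, read 10.05 and 9.56 in root, against 8.02 and 7.55 in leaf (4.06-fold), and its call was lost without leaf replicate 2 and when reporters were made equal. Chalcone synthase, the entry enzyme of flavonoids, differed by gene: CHS3 was lower at -1.35 and 1 of 4 CHS2 probe sets higher at 1.27. That CHS2 probe set was under the guide on all 4 arrays. CHS3 was under it on both root arrays, and its leaf arrays lay on either side of it. The CHS3 call was lost on the deposited values and the CHS2 call when reporters were made equal. Both were lost when either leaf array was left out. CCR1, a cinnamoyl-CoA reductase by its symbol, stood at -1.95 and did not pass (limma adjusted p = 0.0580).

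The 3 defence probe sets were all higher in root, with a median of 3.21. PGIPL, which resembles inhibitors of fungal polygalacturonase, read 10.58 and 11.13 in root, against 8.35 and 6.94 in leaf (9.28-fold), and its leaf arrays were further apart than its root arrays. The chitinase Chia7 read 13.66 and 13.50 in root, against 12.50 and 12.21 in leaf, a difference of 1.22 that was lost when either leaf array was left out and became -0.42 when reporters were made equal.

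**Figure D3:**
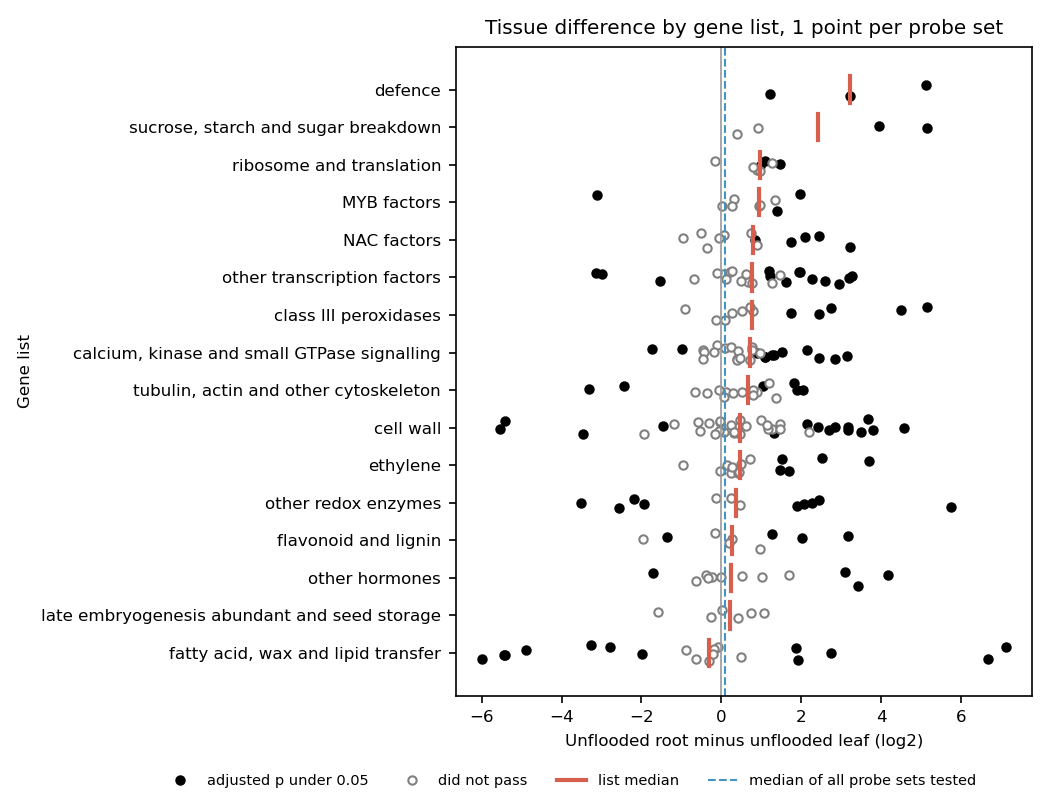
Root minus leaf difference on the log2 scale for each probe set of the gene lists with at least 3 members, with filled points for a limma adjusted p under 0.05. Red bars are list medians, from -0.31 for fatty acid, wax and lipid transfer to 3.21 for defence, and the dashed blue line is the median of all probe sets tested (0.08).

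Of 14 ethylene probe sets 5 were higher in root and 0 lower by limma (6 and 0 at an unadjusted p under 0.05), with a median of 0.47. They were both ACO1 genes (3.69 and 2.52), ACS3 (1.68), ACS1 (1.46) and ERF7 (1.51), an ethylene response factor. ACS1 read 11.85 and 11.97 in root, against 10.34 and 10.56 in leaf. ACS3 read 8.53 and 8.77 in root, against 6.80 and 7.14 in leaf. ERF7 read 6.28 and 5.59 in root, against 4.40 and 4.46 in leaf. The tissues did not overlap in these genes, but ERF7 was under the guide in leaf and on root replicate 2. Only 1 of the 5 was called without leaf replicate 1 or without leaf replicate 2.

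Of 12 probe sets for other hormones 3 were higher and 1 lower, with a median of 0.25 that was -0.037 without root replicate 2 and -0.49 when reporters were made equal. The gibberellin receptors were both higher: GID1-4, given above, and GID1-2 at 8.81 and 10.02 in root, against 6.39 and 6.26 in leaf (8.52-fold), a call that was lost when either leaf array was left out. Lox1 was the third. Aux2 was lower at 9.45 and 9.77 in root, against 11.28 and 11.35 in leaf (-1.71), also lost when either leaf array was left out, and the other Aux probe sets did not pass, with differences of -0.65 to 1.68.

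In each of the 3 lists of transcription factors more of the called probe sets were higher than lower in root. The same held for all named probe sets, with 29.9% higher and 14.5% lower. Of 12 NAC probe sets 5 were higher and 0 lower by limma (7 and 1 at an unadjusted p under 0.05), with a median of 0.80. NAC4 read 9.77 and 9.98 in root, against 7.002 and 6.29 in leaf (3.23, SE 0.31, 9.38-fold, limma adjusted p = 0.00265), NAC5 7.48 and 7.96 in root, against 5.22 and 5.34 in leaf (5.42-fold) and NAC7 7.36 and 7.66 in root, against 5.85 and 4.97 in leaf (4.29-fold), and NAC5 and NAC7 were under the guide in leaf. NAC6 passed at 0.85 with all arrays under the guide. NAC2, NAC10, nst3 and the other NAC7 probe set (0.074) did not pass. Without leaf replicate 1 the list had 3 higher, and without leaf replicate 2 it had 2. Of 9 MYB probe sets MYB1 (1.97) and MYB6 (1.40) were higher, and MYB6 was under the guide in leaf and on root replicate 2. Lower was 1 of 2 probe sets of GHMYB38, at 5.95 and 7.12 in root, against 10.31 and 8.96 in leaf (-3.10). Both higher MYB calls were lost when either leaf array was left out, and the GHMYB38 call without leaf replicate 1.

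The other transcription factors held 10 higher and 3 lower of 25 probe sets (median 0.76). GZFP, a zinc finger protein, read 7.62 and 7.37 in root, against 4.38 and 4.22 in leaf (3.19, SE 0.23, 9.16-fold, limma adjusted p = 0.00112), CBF17 13.57 and 13.83 in root, against 11.78 and 11.69 in leaf, and the homeobox factor HB4 9.56 and 10.20 in root, against 7.57 and 7.01 in leaf (6.02-fold). GHDEL61, a basic helix-loop-helix factor, read 8.41 and 8.28 in root, against 6.21 and 4.59 in leaf. The leaf arrays of GZFP lay under the guide, and the root arrays were above it. COL5-D, a CONSTANS-like factor of the family that links light and day length to flowering, was lower by both probe sets, one of which read 6.999 and 7.996 in root, against 10.69 and 10.59 in leaf (8.85-fold). MADS-3 read 5.81 and 5.17 in root, against 8.48 and 8.49 in leaf (7.96-fold), and its root replicate 2 was under the guide. The calls of COL5-D and CBF17 by these probe sets were lost when either leaf array was left out, and the list then had 4 and 2 higher.

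Of 27 probe sets for calcium, kinase and small GTPase signalling 10 were higher in root and 2 lower, with a median of 0.71 that became -0.11 when reporters were made equal. The mitogen-activated protein kinase MPK3 supplied 5 of the 10 through its 6 probe sets, of which the other stood at 0.23. Its probe set of smallest p read 11.35 and 11.27 in root, against 7.87 and 8.48 in leaf (3.13, SE 0.28, 8.76-fold, limma adjusted p = 0.00215). The annexins, calcium-dependent membrane-binding proteins, were at 2.14 (Anx1) and 1.31 (AnnGh1), the second of which turned to -0.23 when reporters were made equal. Rac9 (1.51) and Rac13 (1.28), small GTPases of plants, and the calcium sensor CBL3 (1.09) were higher, while CBL2 (-0.99) and the vacuolar trafficking GTPase Rab7 (-1.73) were lower. Without leaf replicate 1 or 2 the list had 3 and 2 higher.

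Tubulins form microtubules, and actins form filaments that guide vesicles. Of 18 cytoskeleton probe sets 4 were higher in root and 2 lower (median 0.65, against -0.056 after cyclic loess and -0.42 with reporters made equal). TubA2 read 11.29 and 11.27 in root, against 9.50 and 9.44 in leaf (3.51-fold), BTub4 8.46 and 8.89 in root, against 6.75 and 6.81 in leaf (3.72-fold) and ACT1 13.11 and 12.94 in root, against 12.08 and 11.91 in leaf (2.05-fold). BTub1, another beta-tubulin, was lower in root. It averaged 8.50 ± 0.71 in root and 11.81 ± 0.17 in leaf (SD, n = 2 each), a difference of -3.31 (SE 0.39, 9.90-fold, limma adjusted p = 0.00478), and BTub3 read 10.61 and 11.18 in root, against 10.85 and 10.71 in leaf and did not pass. Without leaf replicate 1 the list had 1 higher, and without leaf replicate 2 it had 0 (limma; 8 on all arrays at an unadjusted p under 0.05). The call of BTub1 was lost without leaf replicate 2.

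Of 8 probe sets for ribosome and translation 3 were higher and 0 lower by limma (7 and 0 at an unadjusted p under 0.05), with a median of 0.96. The elongation factors EF1A2 and EF1A7 passed, as did the ribosomal protein RPS16 (0.97). EF1A2 read 13.74 and 13.52 in root, against 12.17 and 12.18 in leaf (1.46), and EF1A7 averaged 12.17 ± 0.12 in root and 11.08 ± 0.11 in leaf (SD, n = 2 each), a difference of 1.09. When reporters were made equal the median became -0.070 and the values of EF1A2 and EF1A7 -0.12 and -0.075. None of the 3 calls was made when either leaf array was left out, after median centring or after cyclic loess.

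The smaller lists had values only. GS (LOC107962250), placed under nitrogen metabolism by its symbol, read 10.88 and 10.50 in root, against 8.01 and 7.54 in leaf (7.57-fold, limma adjusted p = 0.00259). NIP6.1, an aquaporin-type channel, was higher at 8.73 and 7.87 in root, against 5.81 and 6.17 in leaf (4.96-fold), and KT lower at 8.47 and 7.93 in root, against 9.73 and 9.80 in leaf (2.96-fold). Both of those calls were lost when either leaf array was left out. The histones HIS3 (0.12) and HIS2B (0.27), which dividing cells make, did not pass. All 6 probe sets for late embryogenesis abundant and seed storage proteins lay between -1.58 and 1.06 without passing limma, although 2 higher and 1 lower had an unadjusted p under 0.05.

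A further 86 named probe sets belonged to no list, and 18 of them were higher and 19 lower in root. Chosen after their values were seen, the largest not yet described were pldd, a phospholipase D by its symbol, at 9.55 and 9.77 in root, against 6.64 and 6.65 in leaf (8.07-fold), and paC1 at 11.89 and 11.94 in root, against 8.74 and 9.26 in leaf (7.55-fold). On the lower side PTAC read 6.53 and 6.41 in root, against 9.70 and 9.53 in leaf (8.85-fold) and Ssh2 3.61 and 4.33 in root, against 6.83 and 7.19 in leaf (8.22-fold). Both tissues were separate in these 4, and Ssh2 was under the guide on both root arrays, so its fold depends on background. A further paC1 probe set stood at 1.01 and did not pass. MFS, named for the major facilitator superfamily of transporters, read 10.65 and 10.71 in root, against 12.04 and 11.78 in leaf (-1.23), a call that was lost when either leaf array was left out.

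Several probe sets of one gene could disagree. Of 52 genes with more than 1 probe set, 8 had all of them called the same way, 18 had some called and 24 had none. Called in both directions were 2 genes. TUA10, an alpha-tubulin, had 1 probe set at 12.35 and 12.58 in root, against 10.70 and 10.12 in leaf (2.05), another at 4.84 and 5.53 in root, against 8.12 and 7.13 in leaf (-2.44), and the other at -0.66, which did not pass. Pel, a pectate lyase, which cuts pectin in the wall, had 1 at 7.76 and 8.25 in root, against 4.75 and 4.91 in leaf (3.18) and 1 at 4.79 and 4.31 in root, against 5.99 and 6.01 in leaf (-1.45). The lower probe sets of both genes were under the reporter guide on both root arrays. The lower Pel one was barely above it in leaf, and the higher Pel one was under it in leaf. For both genes the direction therefore depends on the probe set. Upland cotton carries an A and a D copy of most genes, and which copy or relative a probe set reads was not tested.

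A signal above an array's reporter guide in one tissue and under it in the other was found for 665 probe sets (2.77%) in root and 1111 (4.63%) in leaf, and 9735 were under it on all 4 arrays. With 1 common guide of 5.97 the counts were 1106 and 1258. Among named probe sets 16 were above the guide in root alone, among them CPA-FAS-1, CPA-FAS-2, cdn1, pod6, susC, GID1-4, GZFP, NAC5 and a probe set of FLA13. In leaf alone there were 22, among them RCA1, CBP2, CBP3, Glp1, FeSOD and the called probe sets of XTH1, XTH3, KCS38, KCS45 and GhCASPL2A1. These sets are a description of signal, since the guide is not a detection call.

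The flooded arrays, which share no sample with the unflooded ones, gave the same tissue comparison in other plants. There root had been under water for 4 h and leaf sampled after 24 h, so flooding and time differ along with the plants. In that comparison 60% of probe sets were called, and the arrays did not overlap for 43.9% with root higher and 38.2% with root lower. Of the 3276 probe sets higher in unflooded root, 93.8% had the same direction in flooded plants and 86% were called in it, where 32.3% of all probe sets were called higher. Of the 2928 lower ones, 94.9% had the same direction and 90.9% were called, beside 27.7% of all probe sets. From the other side, 36.4% of the probe sets higher and 40.1% of those lower in flooded root were called in unflooded plants. The spread between replicate arrays was larger in the unflooded tissues, with a root mean square SD of 0.493 in unflooded root and 0.293 in unflooded leaf, against 0.224 in flooded root and 0.179 in flooded leaf. Across probe sets the differences had a Pearson r of 0.846 and a Spearman rho of 0.741, which is a description because probe sets are not independent.

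Among named probe sets, 89 of the 97 higher and 47 of the 47 lower in unflooded root had the same direction in flooded plants, and 82 and 46 were called there. RCA1 read 4.62 and 4.62 in flooded root, against 14.39 and 14.45 in flooded leaf, a difference of -9.80. CPA-FAS-2 had 5.79 and Sus1 4.80, each again far higher in root. Called in opposite directions were 170 probe sets (2.74% of the 6204), of which 3 were named: DFR, NIP6.1 and cys1. For DFR, the unflooded plants had 10.05 and 9.56 in root, against 8.02 and 7.55 in leaf, and the flooded plants 7.13 and 7.22 in flooded root, against 10.06 and 9.89 in flooded leaf. The differences of NIP6.1 were 2.31 in unflooded and -0.95 in flooded plants, and those of cys1 1.06 and -0.59.

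The difference of the tissue differences was tested over all 8 arrays, as unflooded minus flooded. It passed for 2237 probe sets (9.33%), 1093 higher (4.56%) and 1144 lower (4.77%) in unflooded plants, and for 54 named ones. Leaving out 1 array moved this count to 6266 (without unflooded root replicate 1), 3991 (without unflooded root replicate 2), 1427 (without unflooded leaf replicate 1) or 1280 (without unflooded leaf replicate 2). It was 685 or 988 without flooded root replicate 1 or 2, and 507 or 648 without flooded leaf replicate 1 or 2. DFR was the largest on the higher side (4.81, SE 0.33, limma adjusted p = 0.000958). H6L followed with 3.49: it read 10.16 and 10.59 in root, against 7.34 and 7.06 in leaf in unflooded plants, and 8.08 and 8.18 in flooded root, against 8.10 and 8.77 in flooded leaf. NIP6.1 (3.30), MFS (3.04) and a probe set of Pel (2.81) completed the 5 largest. cdn1 (2.57), FLA6 (2.35) and E6 (2.22) also had a larger root excess in unflooded plants.

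The largest on the lower side were genes whose root excess was smaller in unflooded plants. CBP3 and HrBP1, also on that side, instead had a larger root deficit in unflooded plants. MYB5 was the largest at -4.15 (limma adjusted p = 0.00689): it read 5.80 and 4.66 in root, against 5.36 and 5.07 in leaf in unflooded plants, and 9.17 and 8.66 in flooded root, against 4.57 and 4.71 in flooded leaf. AOX1 (-3.72), SusA1 (-3.53), ERF7 (-3.35) and Lea5-D (-3.24) followed. SusA1, a sucrose synthase like Sus1 and susC, read 4.55 and 5.75 in root, against 4.13 and 4.35 in leaf in unflooded plants, and 8.72 and 8.89 in flooded root, against 4.36 and 4.21 in flooded leaf. For GOX the unflooded difference of 0.47 stood beside a flooded one of 2.55, and the difference between them passed (-2.10, limma adjusted p = 0.00595).

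**Figure D4:**
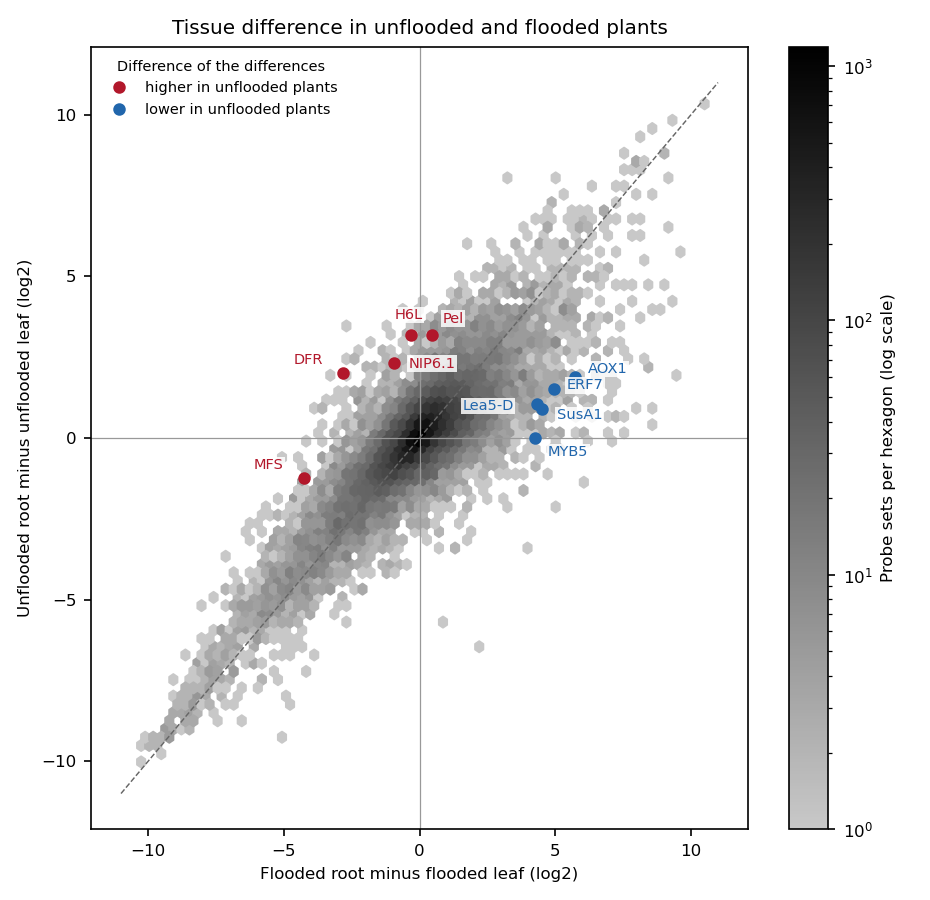
Root minus leaf difference on the log2 scale in unflooded plants (vertical axis) and in flooded plants (horizontal axis) for 23977 probe sets, shaded by their number per hexagon on a log scale. Red and blue points are the 5 named genes each way whose tissue difference differed most between unflooded and flooded plants, from DFR (4.81) to MYB5 (-4.15), and the dashed line marks equal differences.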

How the data were processed

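Log2 signals of 24132 probe sets were deposited by the authors in a single table. The submitters' processing notes name RMA and limma, without versions or order. RMA usually subtracts background, scales arrays and combines the probes of a set, and it compresses small signals. The 4 unflooded arrays were quantile normalized together, because root and leaf lay on different scales. Left out were 103 control probe sets of the manufacturer, and 52 reporter probe sets were normalized but not tested. Group means were compared with lmFit and eBayes in limma 3.58.1 (R 4.3.3) and Benjamini-Hochberg adjustment at 0.05, with no filter on low values, residual and prior degrees of freedom of 2 and 2.87. The flooded arrays were handled alike, and the difference of differences used all 8. The reporter guide is each array's own 95th percentile of reporter probe sets.

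Gene names came from the platform's table and from symbols that RefSeq gives for assembly Gossypium_hirsutum_v2.1. They gave 1 gene for 697 probe sets, several for 46 and none for 23234. ACS, ACO, GS, GLU, CBP, VP and KT are symbols with more than 1 use. The text names, per direction, the 15 largest named genes with at least 2-fold change and no overlap (each gene taken at its probe set with the smallest p), up to 4 genes per list, 2 unnamed probe sets, the matched markers and 5 genes whose tissue difference changed. Members and lists were chosen with earlier results of these data known. The labels do not say whether replicate numbers pair tissues. The replicate 1 minus 2 deviations of root and leaf correlated at 0.00396 (flooded 0.0596), which cannot decide it, because array noise can hide a shared effect. Alternatives covered normalization, variance model, weights, filter, thresholds, the replicate block and each array left out.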

Additional observations from a re-analysis of the deposited data

Results flagged for a closer look

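For 54 named probe sets the root minus leaf difference itself differed between unflooded and flooded plants, as tested by the limma contrast of both differences over all 8 arrays, with adjusted p-values of 0.000958 (DFR) to 0.0485 (AnnGh1). Values are log2 differences, unflooded minus flooded, and each is of 1 probe set. The flooded roots were taken at 4 h and the flooded leaves at 24 h, so tissue and time cannot be told apart there.

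The tissue difference was higher in unflooded plants for 36 of them. The values were 2.51 to 4.81 for DFR (4.81), H6L (3.49), NIP6.1 (3.30), MFS (3.04), Pel (2.81), cdn1 (2.57), CRK1 (2.54) and GHMYB36 (2.51). CelA1 (2.46), GLU (2.42), FLA6 (2.35), FLA13 (2.23), UGD2 (2.22), E6 (2.22), peroxidase (2.15), Ssh2 (2.14) and CTL1 (2.12) came next. Below 2 were Rac9 (1.92), RacA (1.90), FLA15 (1.77), CNGC2 (1.71), ACS1 (1.69), Aux3 (1.66), cys1 (1.64), SAMDC (1.58), SMT2-1 (1.54), ACBP (1.53) and TUA10 (1.52). The smallest were those of GID1-4 (1.43), PEPC1 (1.36), susC (1.32), GHPDI12 (1.22), CBL2 (1.11), CPR1 (1.03), TubA2 (1.02) and PK1 (0.998). For some of these, MFS, CNGC2, Ssh2 and CBL2 among them, this means a smaller deficit in root, since they were lower in root in unflooded plants.

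It was lower in unflooded plants for the other 18. These were MYB5 (-4.15), AOX1 (-3.72), SusA1 (-3.53 and -1.71 by separate probe sets), ERF7 (-3.35), Lea5-D (-3.24), ASP3 (-2.59) and GOX (-2.10). It was lower to a smaller extent for RPS4 (-1.90), Mn-SOD (-1.63), RPS16 (-1.60), BNLGHi8377 (-1.60 and -1.44), CBP3 (-1.56), AnnGh1 (-1.52), MAPKKK (-1.38), HrBP1 (-1.37) and KASIII (-1.02). In CBP3, both root arrays lay under the reporter guide in unflooded plants.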

How the results depend on the processing

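The count of 6204 probe sets (3276 higher and 2928 lower in root) became 16161 on the deposited values, with 14068 higher, and 9462 when all 8 arrays shared one spread, with 5096 higher. With reporters made equal 1092 were higher, and at an adjusted p under 0.01 there were 3084, of which 1492 were higher and 1592 lower. Leaving out 1 array gave 2224 to 9606 in all, 1001 to 5303 higher and 1223 to 4303 lower. The count was lower without either leaf array and higher without either root array. With 1 array left in a tissue, the spread comes only from the pair of the other tissue. The root mean square SD of a pair was 0.493 in unflooded root and 0.293 in unflooded leaf. Whether this accounts for the counts was not tested. The flooded count of 14387 was 9449 (4278 lower) after the filter on low values, which tests fewer probe sets, and its split was 17795 higher and 3454 lower on the deposited values. It ranged over 11401 to 13479 in all, 6077 to 7314 higher and 5324 to 6243 lower with 1 array left out. The 2237 differences of differences ranged over 507 to 6266, 230 to 3236 higher and 277 to 3030 lower. With 1 common reporter guide 1106 probe sets were above it in root alone. The replicate block gave 5398 probe sets (2794 higher and 2604 lower) for unflooded plants, 14617 for flooded plants and 1707 for the difference. Whether the numbers pair the tissues is not given in the labels.

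Of the 30 leading genes only FLA7 lost its call under any of 13 alternatives, and 0 reversed. They were chosen on the same arrays for large differences without overlap between tissues, so the lack of reversals was nearly fixed in advance. Of the other 51 called probe sets that the naming rule picked, 33 lost the call without a leaf array, 1 without a root array and 20 with reporters made equal. Values that turned sign with reporters made equal were the list medians for signalling (-0.11), other hormones (-0.49), other redox enzymes (-0.36), ribosome and translation (-0.070) and cytoskeleton (-0.42), and the genes AnnGh1 (-0.23), EF1A2 (-0.12), EF1A7 (-0.075), EF1A1 (-0.94), Chia7 (-0.42), GOX (-0.37), HIS2B (-1.18), HIS3 (-0.82) and MYB5 (-0.32). Median centring turned EF1A1 (-0.33), HIS2B (-0.57) and HIS3 (-0.22), and cyclic loess EF1A1 (-0.48), HIS2B (-0.72), HIS3 (-0.31) and the cytoskeleton median (-0.056). The deposited scale turned the fatty acid median (0.29) and HOX3 (0.38). With 1 array left out, 6 values turned sign and ranged over -0.83 to 0.27 for Lea14-A, -0.072 to 0.63 for HIS2B, -0.38 to 0.59 for HIS3 and -0.58 to 0.66 for MYB5. The medians ranged over -0.15 to 0.69 for flavonoid and lignin and -0.037 to 0.53 for other hormones. Lea14-A, HIS2B, HIS3 and MYB5 turned without root replicate 1, both medians without root replicate 2, HIS3 also without leaf replicate 1 and MYB5 without leaf replicate 2. Signals near the reporter guide limit what can be said of dim genes.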
